A study of Arabidopsis thaliana with 60 samples.

Results

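Glucosinolates are the sulfur-rich defence compounds of Arabidopsis and its relatives, and the aliphatic ones are built from methionine. Followed here were 10 genes of their synthesis, out of 32833 genes counted: the regulator MYB28 (AT5G61420), the chain elongation genes BCAT4 (AT3G19710), MAM1 (AT5G23010), IMS2 (AT5G23020), IPMI1 (AT3G58990) and IMD1 (AT5G14200), the core pathway genes CYP79F1 (AT1G16410), CYP79F2 (AT1G16400) and GSTF11 (AT3G03190), and the side chain gene FMO GS-OX1 (AT1G65860). The genes were chosen by name with earlier results of these libraries known. Their values are therefore a description, their calls are given without p-values, and no call of a member is used as support for another.

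The pathway has 3 stages. In chain elongation BCAT4 removes the amino group of methionine, the acid is carried into the plastid, and MAM1 or IMS2 (also known as MAM3) adds a carbon unit that the isomerase with the small subunit IPMI1 and the dehydrogenase IMD1 turn into a longer chain. In the core pathway CYP79F1 and CYP79F2 make aldoximes of the elongated amino acids, CYP83A1 oxidises these, glutathione transferases such as GSTF11 are thought to add the sulfur donor, and cleavage, glucosylation and sulfation finish the core. FMO GS-OX1 then oxygenates the sulfur of the side chain. MYB28 is an R2R3-MYB activator of these genes, with MYB29 and MYB76 as its close relatives, and the MYC2, MYC3 and MYC4 factors of jasmonate signalling act together with such MYB proteins. In leaves the pathway is known for defence against chewing insects, and roots make and store the compounds too.

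RNA was sequenced from root segments of 2 Arabidopsis thaliana lines, which express an Aux/IAA repressor that auxin cannot remove, joined to the glucocorticoid receptor domain (GR), from the promoter of GATA23, a gene of lateral root founder cells. In pGATA23::shy2-2-GR (shy2-2 line below) the repressor is a mutant IAA3. In pGATA23::slr-1-GR (slr-1 line below) it is a mutant IAA14. Both carry the native genes as well, and the labels do not say whether a line is a single transformant. Dexamethasone (DEX) frees the fusion to enter the nucleus, and the solvent DMSO was its control. The groups were DEX or DMSO in each line at 0, 1, 2, 4 and 6 h on the auxin IAA, which makes 20 groups of 3 libraries and 60 libraries in all. All seedlings, controls included, had first spent 22 h on 10 µM NPA, an auxin transport inhibitor, from 4 days after germination, and then 2 h on NPA with 10 µM DEX or DMSO, before plates with 10 µM IAA. Each library pooled about 200 segments of the lower part of the roots, so the tissue was mixed and fewer cells of a type cannot be told apart from less RNA per cell. No samples followed time without IAA, and none had DEX in plants that lack a fusion, so elapsed time cannot be told apart from auxin, nor DEX itself from the fusion it frees.

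Library totals ran from 12146529 to 94077078 counts with a median of 40286724. Levels are given as CPM, a gene's count over the total of its library on the usual per-megaread scale, with TMM scaling factors that lay between 0.95 and 1.05. By the file names the libraries came from 5 sequencing runs. For the shy2-2 line the 0, 2, 4 and 6 h libraries of each treatment shared a run, but DEX and DMSO shared one at 1 h only. For the slr-1 line DEX and DMSO shared no run at any time, and the 2 and 6 h libraries of each treatment did. The 6 root markers GL2, SCR, SHR, SMB, MYB36 and CASP1 had 8.45 to 151 CPM in all libraries. In 7 libraries the mean log2(CPM + 1) of 9 photosynthesis genes was 6.73 to 8.32, against at most 5.72 in the others. In the shy2-2 line these were replicate 2 of DEX at 0 h, replicate 3 of DEX at 4 h and replicate 2 of DMSO at 2 h. In the slr-1 line they were replicates 1 and 2 of DEX at 0 h and replicates 1 and 3 of DMSO at 2 h. Every comparison that uses these groups holds them, also where they are not named again. GATA23 itself averaged 0.27 ± 0.16 CPM in DEX and 17 ± 3 CPM in DMSO at 6 h in the shy2-2 line, and 0.51 ± 0.02 CPM in DEX and 26.0 ± 5.4 CPM in DMSO in the slr-1 line (SD, n = 3 each).

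The promoters of 3 members are shown because 2 of them stand before the neighbouring genes CYP79F1 and CYP79F2, whose read counts differed most, and the third, that of IPMI1, held 2 of the motifs searched. Each is the 300 bases before the gene's start in the RefSeq annotation of TAIR10.1, read 5′ to 3′ on the gene's strand, with motif matches in capitals.
CYP79F1, chr1:5608382-5608681, plus strand: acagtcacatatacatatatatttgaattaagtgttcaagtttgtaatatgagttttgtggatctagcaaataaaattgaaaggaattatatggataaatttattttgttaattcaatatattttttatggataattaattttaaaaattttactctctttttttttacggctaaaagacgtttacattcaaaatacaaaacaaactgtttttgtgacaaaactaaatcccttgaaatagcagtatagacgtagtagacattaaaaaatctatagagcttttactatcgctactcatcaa
CYP79F2, chr1:5604744-5605043, plus strand: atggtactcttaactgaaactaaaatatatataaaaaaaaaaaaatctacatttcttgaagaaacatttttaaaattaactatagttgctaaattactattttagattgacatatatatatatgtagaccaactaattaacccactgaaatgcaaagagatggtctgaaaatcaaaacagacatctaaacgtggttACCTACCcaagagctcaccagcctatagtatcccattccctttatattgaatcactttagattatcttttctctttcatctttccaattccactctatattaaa
IPMI1, chr3:21798304-21798603, minus strand: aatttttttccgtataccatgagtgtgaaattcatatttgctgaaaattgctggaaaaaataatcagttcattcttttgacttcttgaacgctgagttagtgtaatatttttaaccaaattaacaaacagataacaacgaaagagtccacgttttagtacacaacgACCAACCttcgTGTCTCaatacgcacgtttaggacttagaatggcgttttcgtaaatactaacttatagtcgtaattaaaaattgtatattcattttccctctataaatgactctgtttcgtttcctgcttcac

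Both strands of these windows were searched for the G-box CACGTG, which MYC proteins bind, for the auxin response element TGTCTC and its variant form TGTCGG, and for the AC elements that R2R3-MYB proteins can bind. The first of these, ACCAACC, lay in IPMI1 and began 134 bases before the start, ahead of TGTCTC at 123 bases before it, and these matches share no letter. The second, ACCTACC, began 104 bases before the start of CYP79F2. The third, ACCTAAC, was read on the other strand of FMO GS-OX1, 71 bases before its start. The fourth, ACCAAAC, was in no member and in 9.66% of all promoters. An AC element thus stood in 3 of 10 member promoters and in 15.9% of 27443 promoters of protein-coding genes. TGTCTC stood in 1 member and in 13% of all promoters, CACGTG in 0 members and 7.09% of all, and TGTCGG in 0 and 4.91%. These are matches of letters and show no binding.

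CYP79F1 (chromosome 1, 5608682 to 5612064, plus strand, 3 exons) and CYP79F2 (chromosome 1, 5605044 to 5607498, plus strand, 3 exons) lie 1183 bp apart. Their coding sequences were 91.9% identical over 1605 aligned bases, and 3.44% of the 50-base windows of CYP79F1 also occurred in CYP79F2, so reads in such windows could not be assigned to one of the pair. CYP79F1 had 199 counts over all 60 libraries, 0 to 14 per library, against 64202 for CYP79F2. It stood at 0 to 0.246 CPM and did not pass the low-count filter in either line. In DMSO at 6 h in the shy2-2 line it had 0 counts in all 3 libraries, which allows up to 0.0293 CPM over the group for counting error alone. MAM1 (chromosome 5, 7703041 to 7706973, plus strand, 9 exons) and IMS2 (chromosome 5, 7718118 to 7721866, plus strand, 10 exons) are 11144 bp apart and 83.8% identical in coding sequence, with 0% of 50-base windows shared. MYB28 lies on chromosome 5 at 24689069 to 24691187, minus strand, with 3 exons. IPMI1 lies on chromosome 3 at 21797058 to 21798303, minus strand, with 1 exon.

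Per kilobase of exon the genes differed widely in level. As means of the 20 group means, IMD1 stood at 44.5 and IMS2 at 43.3 CPM per kb, IPMI1 at 17.2, BCAT4 at 16.1 and CYP79F2 at 12.8 CPM per kb. MYB28 stood at 9.02, MAM1 at 5.0 and GSTF11 at 3.38 CPM per kb, far above FMO GS-OX1 at 0.217 and CYP79F1 at 0.0254 CPM per kb. The close relatives MYB29 (AT5G07690) and MYB76 (AT5G07700) had 1 count each over the 60 libraries, so MYB28 was the member of this MYB clade with measurable RNA in these roots. For 8 of the 10 genes the group with the lowest mean was the slr-1 line in DMSO at 6 h and the group with the highest mean was the slr-1 line in DEX at 4 h. For FMO GS-OX1 the highest was the same and the lowest was the shy2-2 line in DMSO at 6 h. Over the 60 libraries BCAT4 ran from 0.228 to 99.3 CPM with a median of 13.3, IMS2 from 1.33 to 234 CPM with a median of 54.8, and MYB28 from 0.540 to 54.1 CPM with a median of 14.8. GSTF11 ran from 0.0623 to 13.3 CPM, and FMO GS-OX1 from 0 to 1.22 CPM on 913 counts in all.

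MYB28, the regulator, had lower levels in DMSO over the hours on IAA in the slr-1 line and stood between 12.4 and 54.1 CPM under DEX. Under DEX in that line it had 16.6, 27.6 and 27.4 CPM at 0 h, 28.1, 12.4 and 36.1 CPM at 1 h, 38.0, 30.3 and 23.3 CPM at 2 h, 35.5, 54.1 and 44.6 CPM at 4 h, and 14.5, 40.0 and 33.2 CPM at 6 h. In DMSO it had 24.2, 17.4 and 19.9 CPM at 0 h, 8.41, 11.8 and 12.4 CPM at 1 h, 6.65, 11.3 and 7.44 CPM at 2 h, 8.22, 9.13 and 6.10 CPM at 4 h, and 2.71, 1.80 and 0.540 CPM at 6 h. In DMSO the 1, 2 and 4 h libraries overlapped one another, lay below those of 0 h, and stood above those of 6 h, which were the lowest 3 of all 60 libraries. Under DEX each time overlapped the next, and the 4 h mean of 44.8 ± 9.3 CPM (SD, n = 3) was the highest of the 20 groups.

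MYB28 moved over a smaller range in the shy2-2 line. Under DEX it had 16.8, 13.8 and 11.8 CPM at 0 h, 20.9, 12.3 and 33.5 CPM at 1 h, 18.3, 27.3 and 22.9 CPM at 2 h, 22.1, 30.1 and 21.8 CPM at 4 h, and 16.1, 29.9 and 12.9 CPM at 6 h. In DMSO it had 6.75, 15.7 and 13.7 CPM at 0 h, 11.9, 7.51 and 7.69 CPM at 1 h, 8.15, 8.33 and 12.7 CPM at 2 h, 15.2, 15.9 and 11.7 CPM at 4 h, and 4.63, 6.61 and 3.96 CPM at 6 h. The DMSO libraries of 0, 1, 2 and 4 h overlapped in range, and those of 6 h lay below all of them. At 1, 2, 4 and 6 h every DEX library was above every DMSO library of its time, while at 0 h the treatments overlapped. The margin at 1 h was narrow, with 12.3 CPM in the lowest DEX library and 11.9 CPM in the highest DMSO library. At 6 h 17% of the 21902 genes tested in that line had this order, and the share at the other times was not counted.

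**Figure D1:**
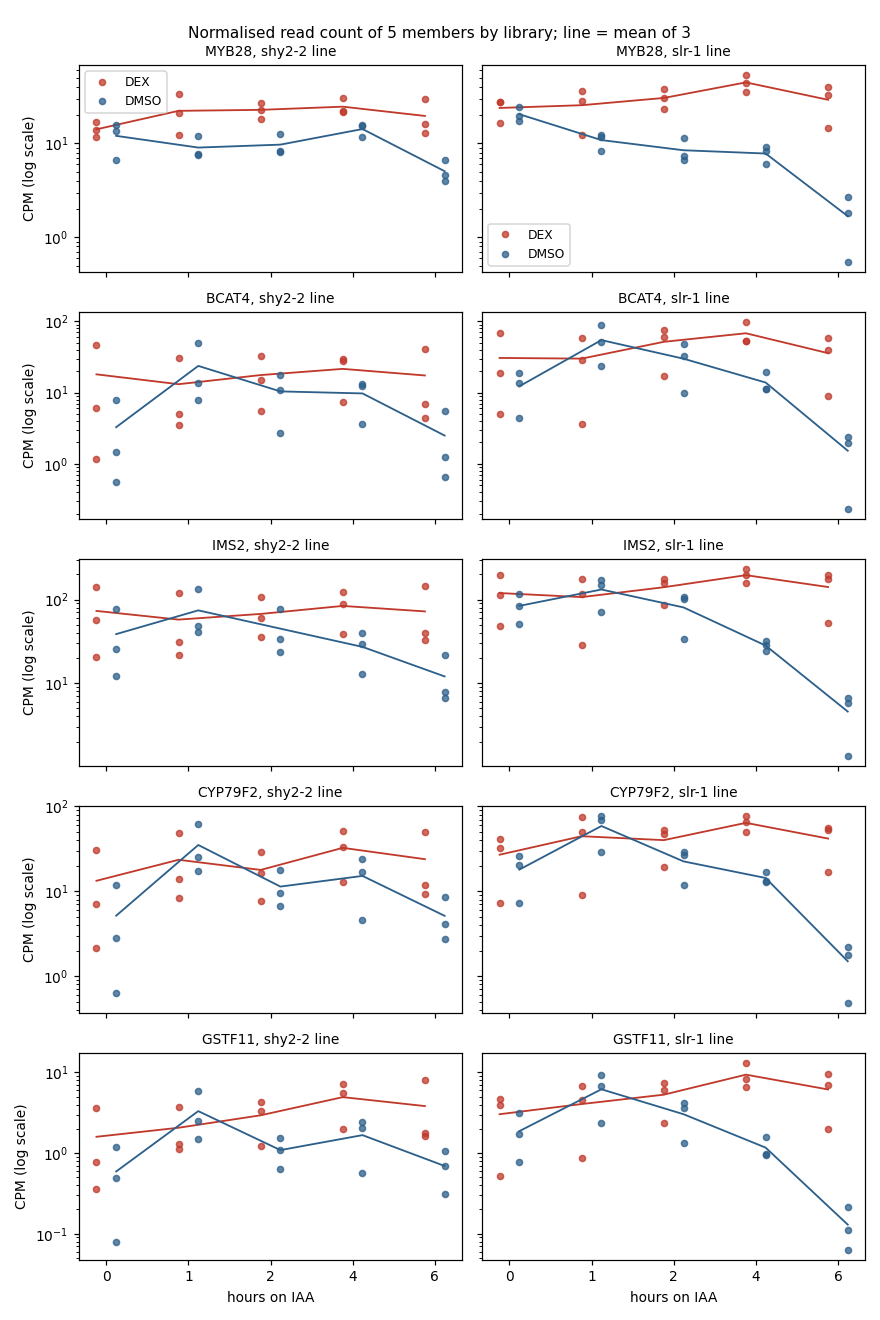
Normalised read count in CPM (log axis) of MYB28, BCAT4, IMS2, CYP79F2 and GSTF11 against hours on IAA in the shy2-2 line (left) and the slr-1 line (right). Each point is a library, red for DEX and blue for DMSO, and lines join means of 3; in the slr-1 line the 3 DMSO libraries at 6 h lie at the bottom of each panel, and the 3 points of a group are often far apart.

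The enzyme genes differed between replicates of a group far more than most genes. Over 15792 genes with a mean of at least 5 CPM, the median SD of log2(CPM + 0.5) within groups was 0.16, and the median ratio of the highest to the lowest library of a group was 1.2. For BCAT4 the SD was 1.37, with 0.158% of those genes above it, and its highest library stood a median of 6.4 times above its lowest. The SD was 1.12 for MAM1, 1.08 for CYP79F2, 0.957 for IMS2, 0.89 for IMD1, 0.846 for GSTF11 and 0.834 for IPMI1. MYB28 varied less, with an SD of 0.475 and a median ratio of 1.61, and 4.19% of genes had a larger SD. In DEX at 0 h in the shy2-2 line, for example, BCAT4 had 47.0, 6.03 and 1.15 CPM, a range of 40.7 times among replicates. In DMSO at 0 h in that line it had 0.557, 7.80 and 1.45 CPM.

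The replicates moved as a block. BCAT4, MAM1, IMS2, IPMI1, IMD1, CYP79F2 and GSTF11 all had their highest value in the same library in 15 of 20 groups, and all 7 had their lowest in the same library in 17 of 20. MYB28 shared the library that was highest for most enzymes in 16 groups and the lowest in 18. In DEX at 1 h in the slr-1 line, for example, the 3 libraries had 116, 28.2 and 176 CPM of IMS2, 103, 27.9 and 148 CPM of IMD1, 49.8, 9.11 and 74.9 CPM of CYP79F2 and 28.1, 12.4 and 36.1 CPM of MYB28. The order was the same for each of these genes, with replicate 3 highest and replicate 2 lowest. Across the 60 deviations from group means, each member of the 9 that passed the low-count filter followed the mean of the others with r of 0.847 for MYB28 to 0.986 for IMD1. This is a description across libraries that share RNA and a group mean, with no test.

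**Figure D2:**
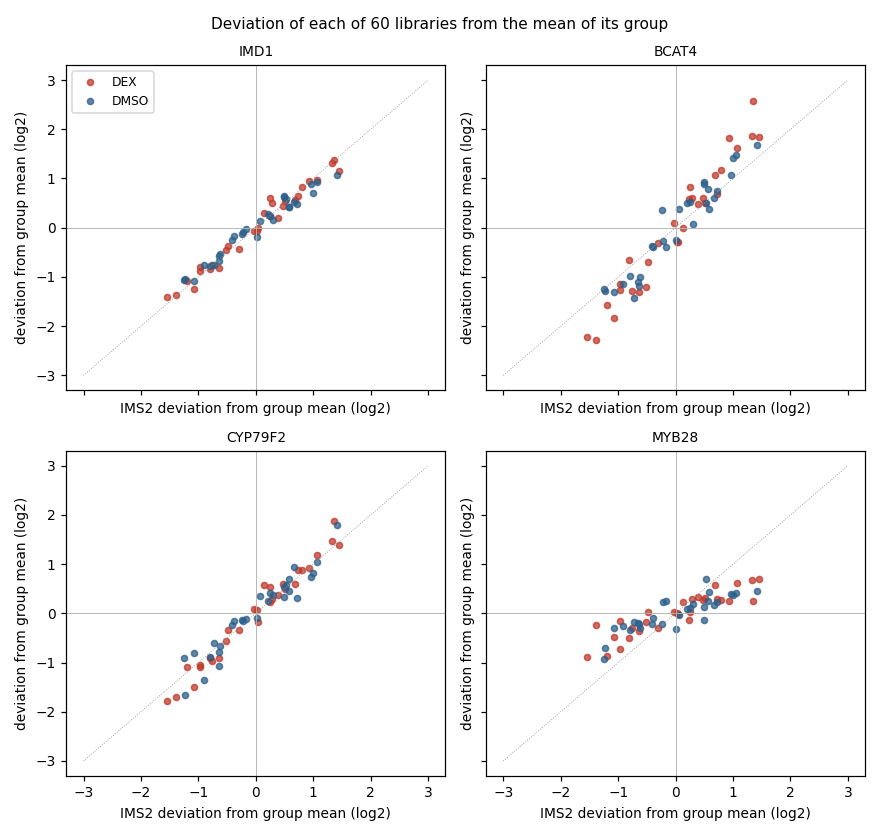
Deviation of log2(CPM + 0.5) from the mean of its group for IMS2 (x axis) against IMD1, BCAT4, CYP79F2 and MYB28 (y axes) in the 60 libraries, red for DEX and blue for DMSO, with the dotted line marking equality. IMD1 and CYP79F2 follow IMS2 closely, BCAT4 is steeper, and MYB28 moves the same way over a smaller range, with within-group SDs of 1.37 for BCAT4 and 0.475 for MYB28.

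What went with this block was looked at in depth, in shoot genes and in root markers. The top library for IMS2 was the deepest of its group in 9 groups and the shallowest in 8. The library highest for most of the 7 enzymes was replicate 1 in 4 groups, replicate 2 in 13 and replicate 3 in 3. Across the 60 deviations the members' mean profile had an r of 0.037 with log2 depth and of -0.42 with the photosynthesis score. With the 6 root markers its r ran from -0.778 for MYB36 to 0.286 for GL2, and their part in the spread was not tested. Of the 7 libraries with high photosynthesis genes, 1 had the highest, 2 the middle and 4 the lowest IMS2 of their group. Their part in the spread was not tested beyond these values. The shoot identity genes YAB3 and AFO had 0.377 to 2.2 and 0.327 to 2.04 CPM in these 7. In the other libraries they were at most 0.581 and 0.208 CPM, both in replicate 3 of DMSO at 6 h in the slr-1 line. That library had a photosynthesis score of 5.72.

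The spread sets what the tests could show. In edgeR's quasi-likelihood test, fitted per line over all genes, 9 members were tested in each line, all but CYP79F1, and a gene was called at an adjusted p under 0.05. Beside a log2 fold change, ± gives its standard error, from 3 libraries a group. Within a line this error was 0.90 to 1.40 on the log2 scale for BCAT4, against 0.34 to 0.48 for MYB28.

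How did the genes stand at 6 h of IAA in roots with the freed repressor, against roots in DMSO? In the slr-1 line every one of the 9 tested members was higher in DEX. IMS2, which condenses the chain elongation substrates, had 52.9, 196 and 174 CPM in DEX, against 5.72, 6.66 and 1.33 CPM in DMSO. MAM1, its neighbour with the same kind of activity, had 5.70, 28.2 and 21 CPM in DEX, against 0.335, 0.353 and 0.0623 CPM in DMSO. BCAT4 had 9.04, 59.1 and 39.4 CPM in DEX, against 1.95, 2.41 and 0.228 CPM in DMSO. The DEX libraries lay above the DMSO libraries for all 9 tested members, an order found for 19.5% of the 21864 genes tested in that line.

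The later steps of the pathway had the same order in the slr-1 line at 6 h. IPMI1 had 16.6, 52.5 and 37.4 CPM in DEX, against 1.27, 0.862 and 0.353 CPM in DMSO, and IMD1 had 44.3, 139 and 138 CPM in DEX, against 9.63, 8.90 and 2.74 CPM in DMSO. CYP79F2, which makes the aldoximes, had 17, 56.3 and 52.2 CPM in DEX, against 2.23, 1.78 and 0.478 CPM in DMSO. GSTF11 had 1.97, 9.55 and 6.96 CPM in DEX, against 0.112, 0.216 and 0.0623 CPM in DMSO, and FMO GS-OX1 had 0.223, 0.883 and 0.441 CPM in DEX, against 0.134, 0.0784 and 0 CPM in DMSO. Replicate 1 was the lowest of the DEX libraries for each of these genes, and replicate 3 the lowest of the DMSO libraries. The CYP79F1 libraries overlapped, with 0.0636, 0.196 and 0.0981 CPM in DEX and 0.0671, 0.0588 and 0.0415 CPM in DMSO.

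As log2 fold changes of DEX over DMSO in the slr-1 line at 6 h, MAM1 stood at 6.19 ± 1.03, GSTF11 at 5.53 ± 0.98, IPMI1 at 5.44 ± 0.75, IMS2 at 4.96 ± 0.75 and CYP79F2 at 4.82 ± 0.81. BCAT4 stood at 4.56 ± 1.1, MYB28 at 4.14 ± 0.47, IMD1 at 3.93 ± 0.70 and FMO GS-OX1 at 2.84 ± 0.95. All 9 were called higher, where 12.3% of all genes tested were called higher, and the members' median was 4.82, against 0.06 over all genes. Without replicate 2 of DEX at 6 h the count was 8. DEX and DMSO came from separate sequencing runs at this time, so run and treatment cannot be told apart here. The 9 photosynthesis genes had a mean log2(CPM + 1) of 2.18 to 4.52 in DEX and 2.15 to 5.72 in DMSO. The library at 5.72 was replicate 3, the lowest DMSO library for the members, and its part was not tested. In edgeR 0 of the 9 passed, at the adjusted as at an unadjusted p under 0.05. Their within-group SDs ran from 0.567 for PSBO1 to 2.37 for LHCB1.1 on the log2 scale, so a difference could go uncalled. Among the 6 root markers GL2 was called higher and SMB lower, and their part in the result was not tested.

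In most tested members DEX also lay above DMSO at 6 h in the shy2-2 line. IMS2 had 39.8, 144 and 32.5 CPM in DEX, against 7.91, 21.5 and 6.67 CPM in DMSO. MAM1 had 2.59, 18.2 and 2.94 CPM in DEX, against 0.348, 1.21 and 0.112 CPM in DMSO, and IPMI1 had 14.9, 38.4 and 12 CPM in DEX, against 5.22, 6.16 and 2.54 CPM in DMSO. CYP79F2 had 11.9, 50.5 and 9.24 CPM in DEX, against 4.13, 8.53 and 2.76 CPM in DMSO. Replicate 2 was the highest library of both treatments, and for CYP79F2 the lowest DEX library was just above the highest DMSO library. The DEX libraries lay above the DMSO libraries in 7 of 9 tested members, where 17% of the 21902 genes tested had that order. BCAT4 overlapped, with 4.44, 41.0 and 6.81 CPM in DEX and 1.24, 5.60 and 0.642 CPM in DMSO, as did FMO GS-OX1.

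In that comparison 4 members were called higher, against 8.53% of all genes tested: MYB28 at 1.91 ± 0.36, MAM1 at 3.67 ± 1.26, IMS2 at 2.53 ± 0.88 and IPMI1 at 2.20 ± 0.76 on the log2 scale. The members not called ran from 1.77 ± 0.76 for IMD1 to 2.70 ± 1.3 for BCAT4, and the median over the 9 was 2.20, against 0.00 over all genes. The count was 1, MYB28, without replicate 2 of DEX at 6 h, and also without replicate 1 or without replicate 3 of DMSO at 6 h. Here too DEX and DMSO came from separate runs. The photosynthesis score was 2.44 to 3.54 in DEX and 3.34 to 5.15 in DMSO. Of the 9 genes 0 passed at the adjusted or an unadjusted p under 0.05 in edgeR, with the same limit from their spread. Of the 6 root markers 0 were called higher and SMB was called lower, at 21.6 to 26.8 CPM in DEX and 37.7 to 41.2 CPM in DMSO, and its part in the result was not tested.

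Before 6 h the values were as follows. At 0 h, before IAA, 0 members were called in either line, where 0.0229% of all genes were called in the slr-1 line and 0% in the shy2-2 line. The members' median log2 fold change was 0.54 in the slr-1 line and 1.36 in the shy2-2 line at that time, and 0 members passed an unadjusted p under 0.05 in edgeR, or were called by DESeq2, in either line. Replicates 1 and 2 of DEX in the slr-1 line and replicate 2 of DEX in the shy2-2 line had high photosynthesis scores at 0 h. At 1 h the 8 tested enzyme genes all had negative log2 fold changes in both lines, from -0.88 ± 0.90 for BCAT4 to -0.32 ± 0.62 for IMS2 in the slr-1 line and from -0.95 ± 1.06 for MAM1 to -0.21 ± 0.70 for IPMI1 in the shy2-2 line. MYB28 alone was positive, at 1.22 ± 0.40 in the slr-1 line and 1.29 ± 0.35 in the shy2-2 line, where DEX and DMSO libraries of this time shared a run. None of these was called, against 0.585% of all genes in the slr-1 line and 0.219% in the shy2-2 line; MYB28 was the 1 member past an unadjusted p under 0.05 in each, and DESeq2 called it in the shy2-2 line and called 0 members in the slr-1 line.

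At 2 h MYB28 was the 1 member called higher in the slr-1 line, at 1.85 ± 0.41, where 0.421% of all genes were called higher, and the members' median was 0.80. This call was lost without replicate 1 or 2 of DEX or replicate 1 or 3 of DMSO at 2 h, of which the last pair had high photosynthesis scores. At that time 0 members were called in the shy2-2 line, against 0.594% of all genes, with a median of 0.65 and MYB28 at 1.23 ± 0.35, the 1 member past an unadjusted p under 0.05 and the 1 called by DESeq2. At 4 h 8 members were called higher in the slr-1 line, all but BCAT4, where 5.83% of all genes were. MAM1 stood at 3.27 ± 0.81, GSTF11 at 3.03 ± 0.78, IMS2 at 2.82 ± 0.67 and MYB28 at 2.54 ± 0.42 there, with a median of 2.59 over the 9. Without replicate 2 of DEX at 4 h, or without any one of the 3 DMSO libraries at 4 h, 5 were called. IMS2 had 156, 234 and 196 CPM in DEX at 4 h in that line, against 32.3, 23.9 and 28.2 CPM in DMSO, without overlap. At 4 h 0 members were called in the shy2-2 line, against 10.8% of all genes, the median was 1.12, 1 member passed an unadjusted p under 0.05, and DESeq2 called 0. There IMS2 had 88.8, 124 and 38.2 CPM in DEX and 29.2, 39.3 and 12.9 CPM in DMSO, and the treatments overlapped. The DEX library at 38.2 CPM, replicate 3, had a high photosynthesis score of 6.95, and its part in the overlap was not tested. In DMSO too replicate 3 was the lowest, with a score of 4.12, and replicate 2 the highest. Each DEX library was above the DMSO library of its number, an order that the unpaired test did not use.

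**Figure D3:**
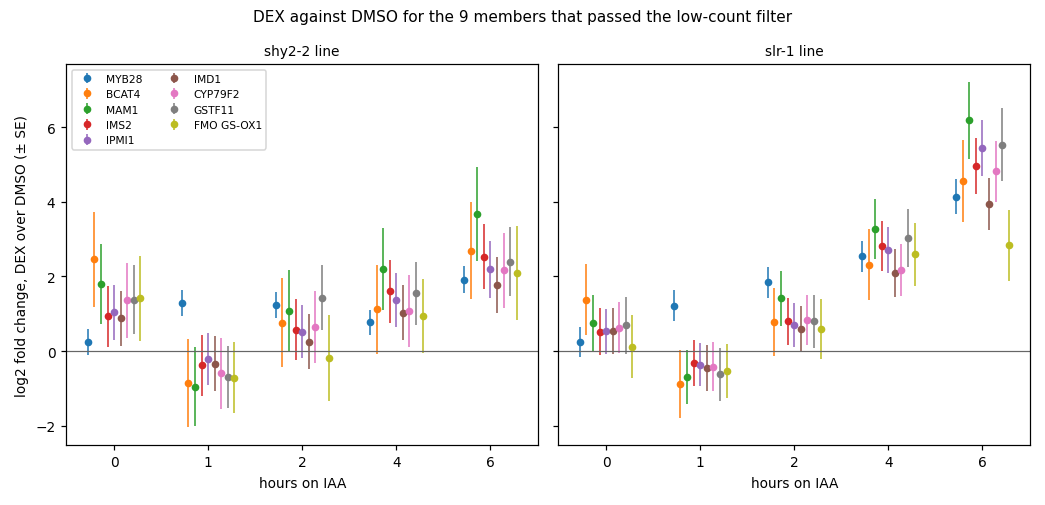
Log2 fold change of DEX over DMSO, with its standard error, at each time on IAA for the 9 members that passed the low-count filter, in the shy2-2 line (left) and the slr-1 line (right). In the slr-1 line the members' median goes through 0.54, -0.44, 0.80, 2.59 and 4.82 over 0, 1, 2, 4 and 6 h, and MYB28 is the 1 member above 0 at 1 h in both lines.

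IMS2 shows how the treatments ran over all times in the shy2-2 line. Under DEX it had 142, 56.6 and 20.8 CPM at 0 h, 31.1, 22.0 and 120 CPM at 1 h, 35.7, 106 and 59.5 CPM at 2 h, 88.8, 124 and 38.2 CPM at 4 h, and 39.8, 144 and 32.5 CPM at 6 h. In DMSO it had 12, 78.0 and 25.7 CPM at 0 h, 134, 48.2 and 40.7 CPM at 1 h, 33.5, 23.7 and 77.2 CPM at 2 h, 29.2, 39.3 and 12.9 CPM at 4 h, and 7.91, 21.5 and 6.67 CPM at 6 h. In each treatment every time overlapped the next, and only at 6 h did DEX and DMSO not overlap.

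Over the hours on IAA in DMSO, the 8 tested enzyme genes of the slr-1 line had their highest mean at 1 h and their lowest at 6 h. IMS2 had 118, 50.7 and 83.1 CPM at 0 h, 70.9, 173 and 151 CPM at 1 h, 33.6, 107 and 101 CPM at 2 h, 32.3, 23.9 and 28.2 CPM at 4 h, and 5.72, 6.66 and 1.33 CPM at 6 h. BCAT4 had 18.6, 4.35 and 13.9 CPM at 0 h, 24, 89.2 and 50.7 CPM at 1 h, 9.73, 32.3 and 47.8 CPM at 2 h, 19.2, 11.1 and 11.2 CPM at 4 h, and 1.95, 2.41 and 0.228 CPM at 6 h. For IMS2 the 0, 1 and 2 h libraries overlapped, those of 4 h lay below them, and those of 6 h were below those of 4 h. For BCAT4 the 1 h libraries were above those of 0 h, and the 6 h libraries were below every other DMSO library of the line.

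At 1 h against 0 h in the slr-1 line 0 members were called, where 27.2% of all genes were called in either direction. The median was 1.27, with BCAT4 at 2.21 ± 0.96, CYP79F2 at 1.75 ± 0.69 and MYB28 in the other direction at -0.90 ± 0.41, and 4 members were higher and 1 lower at an unadjusted p under 0.05 in edgeR. In DESeq2 0 were called too. At 2 h MYB28 alone was called lower, at -1.25 ± 0.41, against 13.9% of all genes, and 0 were called without replicate 1 of DMSO at 0 h or replicate 1 or 3 of DMSO at 2 h. At 4 h MYB28, MAM1 and IMS2 were called lower, 3 of 9 members, against 24.2% of all genes, at -1.41 ± 0.41, -1.95 ± 0.80 and -1.59 ± 0.64. Only MYB28 was called, a count of 1, without replicate 1 or 3 of DMSO at 0 h, or without any one of the DMSO libraries at 4 h. At 6 h 9 of 9 were called lower, where 25.3% of all genes were, with a median of -3.62 against 0.03 over all genes. MAM1 stood at -5.56 ± 1.03, IPMI1 at -4.37 ± 0.73, IMS2 at -4.20 ± 0.72 and MYB28 at -3.62 ± 0.46, and FMO GS-OX1 was nearest to 0 at -2.50 ± 1.00. Of the 6 root markers 5 were called lower too, with a list median of -0.76, and SMB was called higher. GL2 averaged 9.27 ± 1.19 CPM at 6 h and 23.3 ± 4.5 CPM at 0 h, CASP1 67.4 ± 18.6 and 130.1 ± 20.9 CPM, and SMB 39.8 ± 3.6 and 24.8 ± 3.8 CPM (SD, n = 3). The part of such changes in the result was not tested.

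The 0 h libraries in DMSO of the slr-1 line came from another run than the later ones, so run and time cannot be told apart in those comparisons, and the 6 h comparison shares its DMSO libraries with that of DEX against DMSO at 6 h. Without replicate 1 of DMSO at 0 h 7 members were called at 6 h. The step from 2 h to 6 h lies within 1 run. Over it IMD1 stood at 9.63, 8.90 and 2.74 CPM at 6 h, against 38.2, 109 and 127 CPM at 2 h, without overlap. Over this step 8 members were called lower in DMSO in the slr-1 line, all but FMO GS-OX1, against 17.1% of all genes, with a median of -4.16. MAM1 stood at -5 ± 1.02, GSTF11 at -4.52 ± 0.98, BCAT4 at -4.31 ± 1.09 and MYB28 at -2.36 ± 0.45. In replicates 1 and 3 of DMSO at 2 h the photosynthesis score was high, at 6.73 and 6.80. A fit without them leaves 1 library at 2 h, and the part of these libraries in the step was not tested otherwise. Of the 6 root markers 5 were also called lower and the root cap gene SMB higher over this step.

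Under DEX in the slr-1 line no member was called at 6 h against 0 h, where 36.4% of all genes were called in either direction, and none over the step from 2 h to 6 h, where 15.2% were. The medians were 0.28 and 0.00, 0 members passed an unadjusted p under 0.05 in either comparison in edgeR, and DESeq2 called 0 in both. IMS2 had 52.9, 196 and 174 CPM at 6 h in DEX, against 48.8, 197 and 113 CPM at 0 h in DEX, ranges that nearly coincide. At -0.13 ± 0.73 for MAM1 and 0.28 ± 0.40 for MYB28 the differences were within their errors. By the file names, DEX at 0 h and DEX at 6 h belong to different runs in this line. Run and time can therefore not be separated for 6 h against 0 h, while the step from 2 h stays within 1 run. Replicates 1 and 2 of DEX at 0 h had high photosynthesis scores of 8.09 and 7.51, and their part in this result was not tested.

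In the shy2-2 line in DMSO the first hour was the time with the most calls. CYP79F2 had 62.6, 25.5 and 17.3 CPM at 1 h, against 0.637, 12 and 2.82 CPM at 0 h, and IPMI1 had 49.4, 21 and 21.7 CPM at 1 h, against 1.83, 12 and 4.52 CPM at 0 h, both without overlap. IPMI1 at 2.32 ± 0.75, CYP79F2 at 2.76 ± 1.02 and GSTF11 at 2.47 ± 0.90 were called higher, 3 of 9 members, against 15.8% of all genes, and the median was 2.32. The count was 0 without replicate 1 or replicate 3 of DMSO at 0 h or replicate 1 of DMSO at 1 h, and 1 without replicate 2 of DMSO at 1 h. By the file names 0 h and 1 h were sequenced in separate runs, and the harvest text of the labels names 0, 2, 4 and 6 h only. At 6 h against 0 h, within 1 run, MYB28 alone was called lower, at -1.21 ± 0.36, against 20% of all genes, and the median was -0.37. MAM1 stood at -2.72 ± 1.24 and CYP79F2 at 0.04 ± 1.00 there.

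Over the step from 2 h to 6 h in DMSO in the shy2-2 line all 9 members had negative log2 fold changes, with a median of -1.26, but 0 were called, against 24.4% of all genes. In edgeR 2 members passed an unadjusted p under 0.05, and DESeq2 called 1, MYB28. Replicate 2 of DMSO at 2 h had a high photosynthesis score of 8.29. Under DEX in that line 0 members were called at 6 h against 0 h, where 35.7% of all genes were, and 0 over the step, where 14.4% were. The medians were 0.47 and 0.26, 0 members passed an unadjusted p under 0.05 in edgeR, and DESeq2 called 0 in both. IMS2 had 39.8, 144 and 32.5 CPM at 6 h in DEX, against 142, 56.6 and 20.8 CPM at 0 h in DEX, with wide overlap.

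The change of the response by DEX was the mean of 2, 4 and 6 h less 0 h under DEX, less the same in DMSO. In the slr-1 line 4 members were called higher, against 3.29% of all genes: MYB28 at 2.60 ± 0.48, MAM1 at 2.86 ± 0.92, IPMI1 at 2.42 ± 0.71 and IMS2 at 2.33 ± 0.74, with a median of 2.33. The count was 1 without replicate 1 or replicate 3 of either treatment at 0 h, 2 without replicate 1 or 2 of DEX at 2 h, replicate 2 or 3 of DEX at 4 h or 6 h, or any one of the DMSO libraries at 4 h, and 3 or 4 otherwise. Without the 7 libraries of high photosynthesis score the count was 0, which leaves a lone library in DEX at 0 h and in DMSO at 2 h. That score was 4.54 to 8.09 in DEX at 0 h and 3.34 to 4.15 in DMSO at 0 h, and its part in this result was not tested otherwise. In the shy2-2 line 0 members were called, against 4.62% of all genes in either direction, with a median of 0.32 and MYB28 at 1.07 ± 0.40. There 1 member passed an unadjusted p under 0.05 in edgeR, and DESeq2 called 0.

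Did the lines differ? All 60 libraries were fitted together, and the fold change of the slr-1 line was subtracted from that of the shy2-2 line. For DEX against DMSO at 6 h the members' median difference was -2.38 on the log2 scale and 0 were called, where 0.184% of 22268 genes were. MYB28 differed by -2.18 ± 0.58 (95% interval -3.35 to -1.01) and IMS2 by -2.39 ± 1.1 (-4.62 to -0.15). For the response at 6 h in DMSO the median difference was 2.64 and 0 were called, where 0.202% of all genes were, with MYB28 at 2.36 ± 0.58 (1.18 to 3.54) and IPMI1 at 3.96 ± 1.07 (1.79 to 6.13). In edgeR 6 members passed an unadjusted p under 0.05 in each comparison, and DESeq2 called 1 for DEX against DMSO (MYB28) and 2 for the response (MYB28 and IPMI1). The intervals of BCAT4, MAM1 and FMO GS-OX1 reached across 0 in both comparisons.

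Of 18 other genes of aliphatic synthesis AOP2 is not analysed here, and 14 were tested in each line. At 6 h in the slr-1 line 7 of the 14 were higher in DEX than in DMSO and 2 lower, where 12.3% of all genes were higher and 16.9% lower, and the list's median was 1.61. CYP83A1, the next enzyme after the CYP79F proteins, averaged 44.5 ± 25.1 CPM in DEX and 2.06 ± 1.16 CPM in DMSO (SD, n = 3), a log2 fold change of 4.45 ± 0.84 (adjusted p = 0.00027 by edgeR's quasi-likelihood method). BAT5, the plastid transporter of the elongation substrate, was higher in DEX by 4.19 ± 0.67 (adjusted p = 3.9e-05, edgeR). IPMI2, the other small subunit of the isomerase, was higher by 4.34 ± 0.71 (5.3e-05), and the sulfotransferase gene SOT18 by 2.54 ± 0.39 (2.6e-05). The 2 lower genes, a count near the share of all genes, were IMD3 and BCAT3, relatives of IMD1 and BCAT4. IMD3 had a log2 fold change of -0.55 ± 0.08 (1.4e-05) and BCAT3 one of -0.48 ± 0.12 (0.0028). BCAT3 averaged 64.9 ± 7.2 CPM in DEX and 91.3 ± 6.7 CPM in DMSO (SD, n = 3).

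SOT18 was the 1 gene of that list that at 6 h in the shy2-2 line was higher in DEX, by 1.41 ± 0.40 (adjusted p = 0.013, edgeR), and IMD3 and BCAT3 were lower, at -0.47 ± 0.10 (0.0012) and -0.49 ± 0.13 (0.0099), where 8.53% of all genes were higher and 13.9% lower. Out of the 14 tested, the 1 higher and the 2 lower are near these shares. CYP83A1 stood at 1.94 ± 0.98 in that line and did not pass. Over the step from 2 h to 6 h in DMSO in the slr-1 line, within 1 run, 6 of the 14 fell, where 17.1% of all genes did. Of these IPMI2 fell by 3.94 ± 0.70 (adjusted p = 0.00019, edgeR), CYP83A1 by 4.33 ± 0.84 (0.00042) and BAT5 by 3.24 ± 0.65 (0.00061).

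Genes of the steps that aliphatic and indolic glucosinolates share were higher too in the slr-1 line at 6 h. All 5 genes of that list were higher in DEX than in DMSO, where 12.3% of all genes were, with a median of 1.18. Among them the C-S lyase gene SUR1 was higher by 1.18 ± 0.26 (adjusted p = 0.0011, edgeR) and the glucosyltransferase gene UGT74B1 by 1.35 ± 0.34 (0.0034). From 0 h to 6 h the mean of SUR1 went from 65.2 to 31.4 CPM in DMSO and from 71.5 to 70.7 CPM in DEX. That of UGT74B1 went from 60.3 to 28.8 CPM in DMSO and from 64.6 to 72.9 CPM in DEX. APK1, which supplies activated sulfate, was the 1 of 5 higher in DEX in the shy2-2 line, by 0.82 ± 0.29 (0.046), where 8.53% of all genes were higher. Indolic glucosinolates are built from tryptophan. Of 15 of their genes 9 were higher in DEX in the slr-1 line with a median of 0.77 and 2 in the shy2-2 line with a median of 0.28. In edgeR 0 were lower in either line, also at an unadjusted p under 0.05. Of all genes 12.3% were higher in the slr-1 line and 8.53% in the shy2-2 line, so the 2 of 15 in the shy2-2 line is near the share of all genes. GSTF9 was higher in DEX by 1.99 ± 0.34 (7e-05), the regulator MYB122 by 1.43 ± 0.29 (0.00047) and its relative MYB34 by 1.80 ± 0.40 (0.0013) in the slr-1 line. MYB34 and GSTF10 were higher in DEX in the shy2-2 line, by 0.97 ± 0.35 (0.048) and 0.68 ± 0.13 (0.00061).

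Of the 4 other regulators 3 were higher in DEX than in DMSO in each line at 6 h. Of all genes 12.3% were higher and 16.9% lower in the slr-1 line, and 8.53% higher and 13.9% lower in the shy2-2 line. In the slr-1 line MYC2 was higher in DEX by 0.79 ± 0.16 (adjusted p = 0.00038, edgeR), MYC3 by 0.76 ± 0.18 (0.0018) and MYC4 by 0.55 ± 0.09 (4e-05). In the shy2-2 line MYC3 was higher in DEX by 0.53 ± 0.18 (0.036) and MYC4 by 0.52 ± 0.14 (0.0066). The sulfur response regulator SLIM1 was higher by 0.29 ± 0.10 (0.032) there, and MYC2 stood at 0.19 ± 0.16. In DMSO MYC2 fell at 1 h of IAA against 0 h, by 0.98 ± 0.16 (2.8e-05) in the slr-1 line and by 1.08 ± 0.16 (1.3e-05) in the shy2-2 line. Under DEX it was lower at 1 h too, at -0.63 ± 0.155 (adjusted p = 0.0037, edgeR) in the slr-1 line and -0.659 ± 0.159 (0.003) in the shy2-2 line. At 6 h against 0 h under DEX it stood at -0.744 ± 0.156 (6e-04) and -0.863 ± 0.16 (0.00019) in these lines. The leucine synthesis genes IPMS1, IPMS2 and IMD2 are related to the elongation genes. At 6 h 2 of these 3 were lower in DEX than in DMSO in each line. IMD2 was lower in DEX by 0.49 ± 0.08 (1.8e-05) in the slr-1 line and by 0.53 ± 0.10 (0.00036) in the shy2-2 line. Of 3 glucosinolate transporter genes 0 passed in either line in edgeR, and 0 at an unadjusted p under 0.05. Of 6 tested breakdown genes 0 passed in the slr-1 line in edgeR, with 1 at an unadjusted p under 0.05, and 1 passed in the shy2-2 line, BGLU28, a glucosidase gene with 0 counts in all 3 DEX libraries and 57 counts in DMSO, all of them in 1 library.

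**Figure D4:**
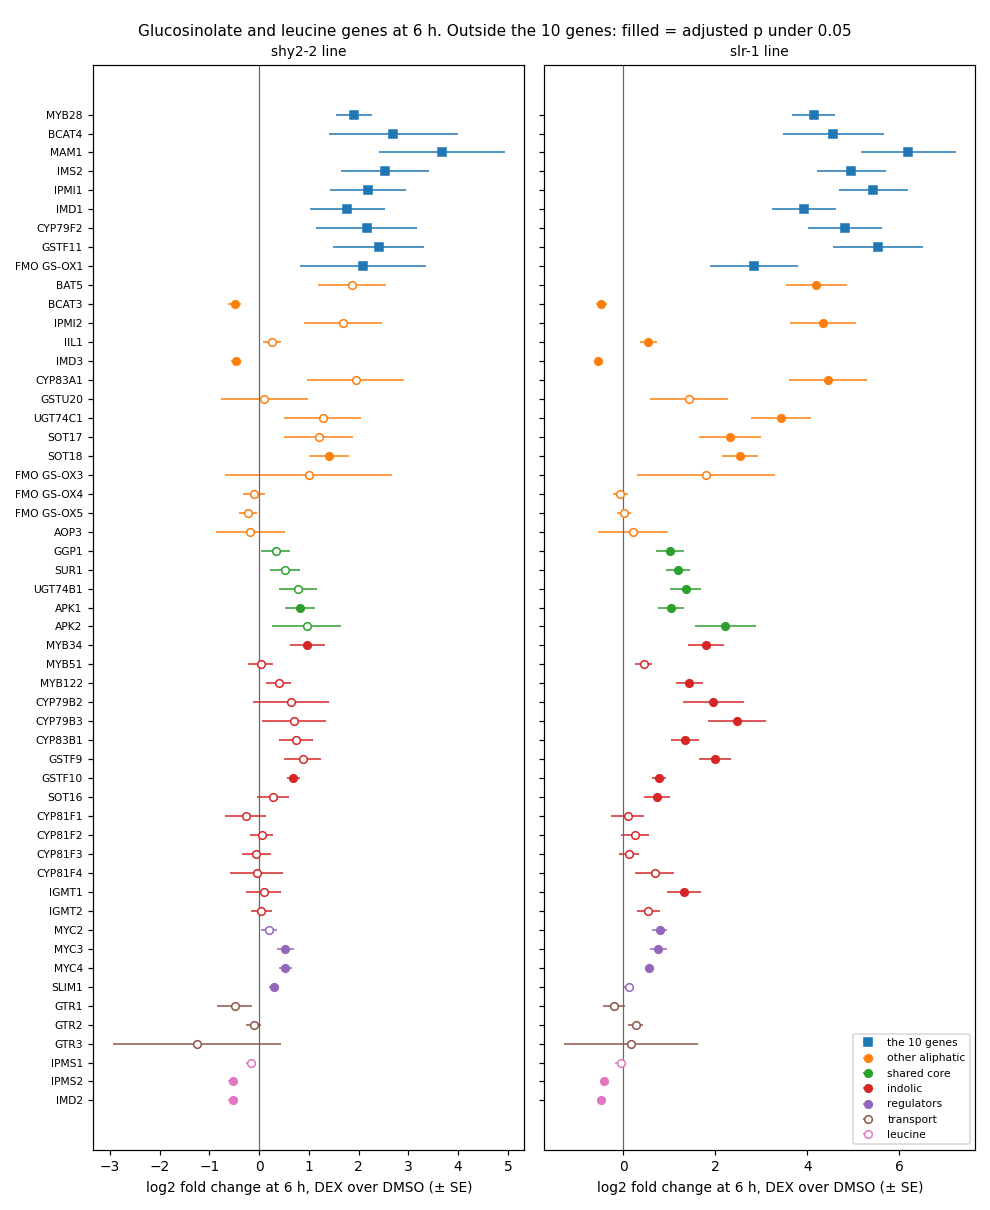
Log2 fold change of DEX over DMSO at 6 h of IAA, with its standard error, for glucosinolate and leucine synthesis genes in the shy2-2 line (left) and the slr-1 line (right), coloured by list; squares are the members, and outside them filled circles mark an adjusted p under 0.05. BAT5, IPMI2, CYP83A1 and SOT18 stand near the members in the slr-1 line, while BCAT3, IMD3 and the leucine genes IPMS2 and IMD2 lie below 0 in both lines.

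Which genes had a pattern most like the members'? Over the 20 group means of log2(CPM + 0.5), the mean of the members' standardised profiles was compared with 15785 genes of at least 5 CPM on average. The highest r values were 0.989 for BAT5, 0.984 for UGT74C1 (AT2G31790), 0.979 for AT1G21440, 0.978 for the aspartate kinase gene AK3 (AT3G02020) and 0.972 for IPMI2. CYP83A1 at 0.953, AT5G44720 at 0.933, SOT18 at 0.920, CB5-C (AT2G46650) at 0.919 and AT3G62580 at 0.913 followed, and the median over all genes was 0.037. Within groups, over the 60 deviations, a comparison chosen after the values were seen, the list was led by CYP83A1 at 0.988, IPMI2 at 0.987, BAT5 at 0.987, UGT74C1 at 0.983, AK3 at 0.982 and DJ1F (AT3G54600) at 0.981. Of the 10 genes with the highest r in each, 6 were in both. In all 457 genes had an r over 0.8 within groups, and the median over all genes was -0.017.

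BCAT3, with an r of -0.363 over group means, had an r of 0.818 within groups. IMD3 had an r of -0.538 over group means and of 0.576 within groups. MYC3 was opposed to the members within groups, with an r of -0.834, and had an r of 0.294 over group means, and the glucosidase gene BGLU30 had an r of -0.881 within groups. These values describe libraries that share RNA, group means and runs, and carry no test.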

How the data were processed

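The members and the gene lists were chosen with earlier results of these data known. Each deposited file holds counts of reads per gene, raw counts that the authors made with STAR 2.5.2b on TAIR10, per the submitters' processing notes. The column of reads on the reverse strand (column 4) was used; it held 93.6 to 96.4% of the gene counts of both strand columns. The 4 rows that name no gene, 5.58 to 11.9% of the counts, were left out. Replicates are triplicates by the labels, which do not say that they came from separate cultures, so a p-value here speaks of the spread among these libraries, which may be technical.

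Each line was fitted alone over its 30 libraries with edgeR 4.0.16 in R 4.3.3 (filterByExpr, TMM, robust quasi-likelihood test), with Benjamini-Hochberg adjustment over all genes tested and calls at an adjusted p under 0.05. CPM levels and line differences came from 1 fit of all 60 libraries. The method was checked on simulated counts. Promoters and positions were read from TAIR10.1. Alternatives were DESeq2 1.42.0, no filter, the compared groups alone, the replicate block, and leaving out each library or the 7 libraries with high photosynthesis genes. Replicates of a group differed by a chi-square of 14.9 to 118.8 per degree of freedom, so none was a repeat deposit. Genes named are the 10 members, MYB29, MYB76, MYC2 to MYC4 and CYP83A1, and up to 4 genes of a list by adjusted p. SMB at 6 h against 0 h and BCAT3 in the slr-1 line were named after their values were seen. So were MYB36 and GL2 across the 60 deviations and MYC3, BGLU30, IMD3 and BCAT3 in the likeness.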

Additional observations from a re-analysis of the deposited data

How the results depend on the processing

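Of 3193 log2 fold changes of members recomputed under the alternatives 0 reversed a call, 119 lost a call and 26 gained one. A further 2951 kept their call or stayed uncalled within 1 SE, and 97 stayed uncalled but moved by 1 SE or more. The cause of these changes was not tested. DESeq2 called 1 member (MYB28) in the shy2-2 line for DEX against DMSO at 1 h and 1 at 2 h, where edgeR called 0, 2 for 6 h against 0 h in DMSO (edgeR 1), 1 over the step from 2 h to 6 h in DMSO (edgeR 0), and for the line differences 2 in the response and 1 in DEX against DMSO (edgeR 0 in both). Without the low-count filter, with more genes tested, the shy2-2 line had 1 call at 1 h against 0 h (3 with it), 1 for DEX against DMSO at 6 h (4 with it) and 1 over the step in DMSO, CYP79F1 (0 with it), and the slr-1 line had 1 call at 4 h against 0 h (3 with it) and 2 for the change by DEX (4 with it). With the compared groups alone, and so fewer libraries, the shy2-2 line had 1 call at 1 h against 0 h. It had 2 for DEX against DMSO at 6 h and 1 at 4 h, and the slr-1 line had 2 at 1 h against 0 h. In all, this setting gained 5 member calls and lost 4, and DESeq2 gained 8 and lost 0, so not every change is listed. Without the 7 libraries of high photosynthesis score the slr-1 line had 0 calls for the change by DEX, for DEX against DMSO at 2 h and for 2 h against 0 h in DMSO. DEX at 0 h and DMSO at 2 h then hold 1 library each, assumed to vary like the other groups, and not every changed call of that fit is listed. Leaving out each library in turn gave, for IAA in DMSO in the shy2-2 line, 0 to 4 calls at 1 h, 0 to 1 at 4 h and 1 to 2 at 6 h, with 0 to 1 over the step from 2 h to 6 h, 1 to 4 for DEX against DMSO at 6 h and 0 to 1 for the change by DEX. In the slr-1 line it gave 0 to 1 call at 1 h, 0 to 1 at 2 h, 1 to 3 at 4 h and 7 to 9 at 6 h in DMSO, 0 to 1, 5 to 8 and 8 to 9 for DEX against DMSO at 2, 4 and 6 h, 8 over the step, and 1 to 4 for the change by DEX. For the line differences it gave 0 to 2 in the response and 0 to 1 in DEX against DMSO. The replicate numbers did not pair the samples in most comparisons: all 3 correlations of same-numbered deviations were over 0.1 in 3 of 30. In the same 3 every sample correlated best with its own number. In the shy2-2 line these were DEX against DMSO at 4 h and, in DMSO, 6 h against 0 h. In the slr-1 line it was 6 h against 0 h under DEX. DEX against DMSO in the shy2-2 line had r of 0.231, 0.626 and 0.692 at 4 h. At 6 h the r values of that comparison were 0.072, 0.657 and 0.331. Pairing within a single comparison was not tested. With the replicate block the counts were the same in all comparisons, for example 9 for DEX against DMSO at 6 h in the slr-1 line and 4 in the shy2-2 line. The likeness over group means kept 9 of the 10 genes without the high photosynthesis libraries. Counts limit CYP79F1 (199 reads in 60 libraries) and FMO GS-OX1 (913), and the spread between replicates limits the others.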
